A study of Homo sapiens with 6 samples.

Results

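The extracellular matrix and its cell surface receptors were examined at the RNA level in HepG2 cells, an established human hepatocellular carcinoma line that keeps many features of liver parenchymal cells. The set held 42 genes chosen by name, among the 57500 genes counted in each library: 7 collagen chains, 6 laminin chains, 5 other basement membrane or adhesive glycoproteins, 3 matricellular proteins, 5 matrix proteases and protease inhibitors, 9 integrin chains, 5 cell surface proteoglycans and hyaluronan receptors, and 2 galectins. All 42 had a row in every file. The cells carried the wild-type genotype and were cultured for 24 h with 10 mM glycine or with vehicle, in standard medium that already contains glycine. There were 3 libraries per group, and all 6 came from the same cell line. The labels do not say whether these came from separate cultures, and the study's methods describe a biological replicate as an experiment done on a day of its own. The p-values measure the spread between these libraries.

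The extracellular matrix is built by the cells it surrounds. Basement membranes are sheets in which laminin trimers and type IV collagen form interlinked networks, joined by nidogen, perlecan (HSPG2) and agrin, while fibronectin and fibrillar collagens make looser interstitial fibres. Cells hold on to these proteins through integrins, which are pairs of an alpha and a beta chain, and through syndecans and dystroglycan. Membrane-type metalloproteinases such as MMP14 and MMP15 cut the matrix. The tissue inhibitors of metalloproteinases (TIMPs) restrain proteases of the wider family, and not every TIMP restrains every protease. In liver, hepatocytes secrete fibronectin into plasma, stellate cells make most fibrillar collagen, and hepatocellular carcinoma cells often express the proteoglycan GPC3.

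The libraries held between 31795489 and 58815986 counts, so that 1 count was worth between 0.017 and 0.0315 CPM (counts scaled to 1e+06 per library). Limits set by counts cover counting error only. Hepatocyte markers were abundant: ALB, encoding albumin, had a mean of 7688 CPM with vehicle and APOB, the core protein of lipoproteins, 10752 CPM. Of 6 leukocyte markers none was expressed enough to be tested and none exceeded 0.12 CPM in any library. Of 8 stellate cell and fibroblast markers, PDGFRB alone was tested, and POSTN, encoding periostin, had no count. The summed level of the 9 hepatocyte markers was 29594 to 33653 CPM with vehicle and 25411 to 29108 CPM with glycine, and APOA1 and TTR were called lower while none of the 9 was called higher by edgeR (5 had an unadjusted p under 0.05). PDGFRB was lower as well (log2 change -0.66 ± 0.0811, edgeR adjusted p = 0.000137), and the summed level of the 8 markers was 24.9 to 29.3 CPM with vehicle and 16.5 to 18.3 CPM with glycine. The 6 endothelial markers summed to 5.62 to 5.95 and 4.63 to 5.42 CPM, with VWF called lower among the 3 tested. The part of these shifts in the results was not tested. In bulk RNA, a change in the number of cells that express a gene and a change in RNA per cell cannot be told apart.

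The matrix transcripts of these cells were dominated by a few genes. Levels of different genes were compared as TPM (counts divided by the exon length in the file and scaled to 1e+06 within a library). The highest means with vehicle were 2795 ± 421 TPM for FN1 (SD, n = 3), which encodes fibronectin, 2032 ± 647 TPM for GPC3, 1876 ± 242 TPM for SPP1, which encodes osteopontin, 536 ± 37.1 TPM for LGALS1 and 416 ± 34.1 TPM for SDC1. The ranges of GPC3 and FN1 overlapped across the vehicle libraries, although FN1 was above GPC3 in each of them. GPC3 and SPP1 changed places between vehicle libraries, so their order was within the spread. FN1 lay above SPP1, SPP1 above LGALS1 and LGALS1 above SDC1 in every vehicle library. FN1 alone took between 56.3% and 64.1% of the member counts of a library. This share is of counts, not of TPM, and so also reflects the exon length of FN1, 17315 bases. The chains of a laminin trimer were expressed together, with LAMC1 at 184 ± 16.8 TPM, LAMB2 at 175 ± 8.94, LAMA5 at 133 ± 23.7 and LAMB1 at 105 ± 10.9 TPM with vehicle. The other laminin chains of the set, LAMA3 and LAMB3, were at 1.79 ± 0.0419 and 0.651 ± 0.131 TPM. Both type IV collagen chains of the set were low. COL4A2 was at 0.251 ± 0.0852 TPM with vehicle, and COL4A1 had 0 counts in each vehicle library, which allows up to 0.0858 CPM, and 3 counts over the 3 glycine libraries. Other type IV chains, outside the set, were higher, with COL4A5 at 17.1 ± 1.79 TPM and COL4A6 at 7.56 ± 1.49 TPM with vehicle.

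**Figure D1:**
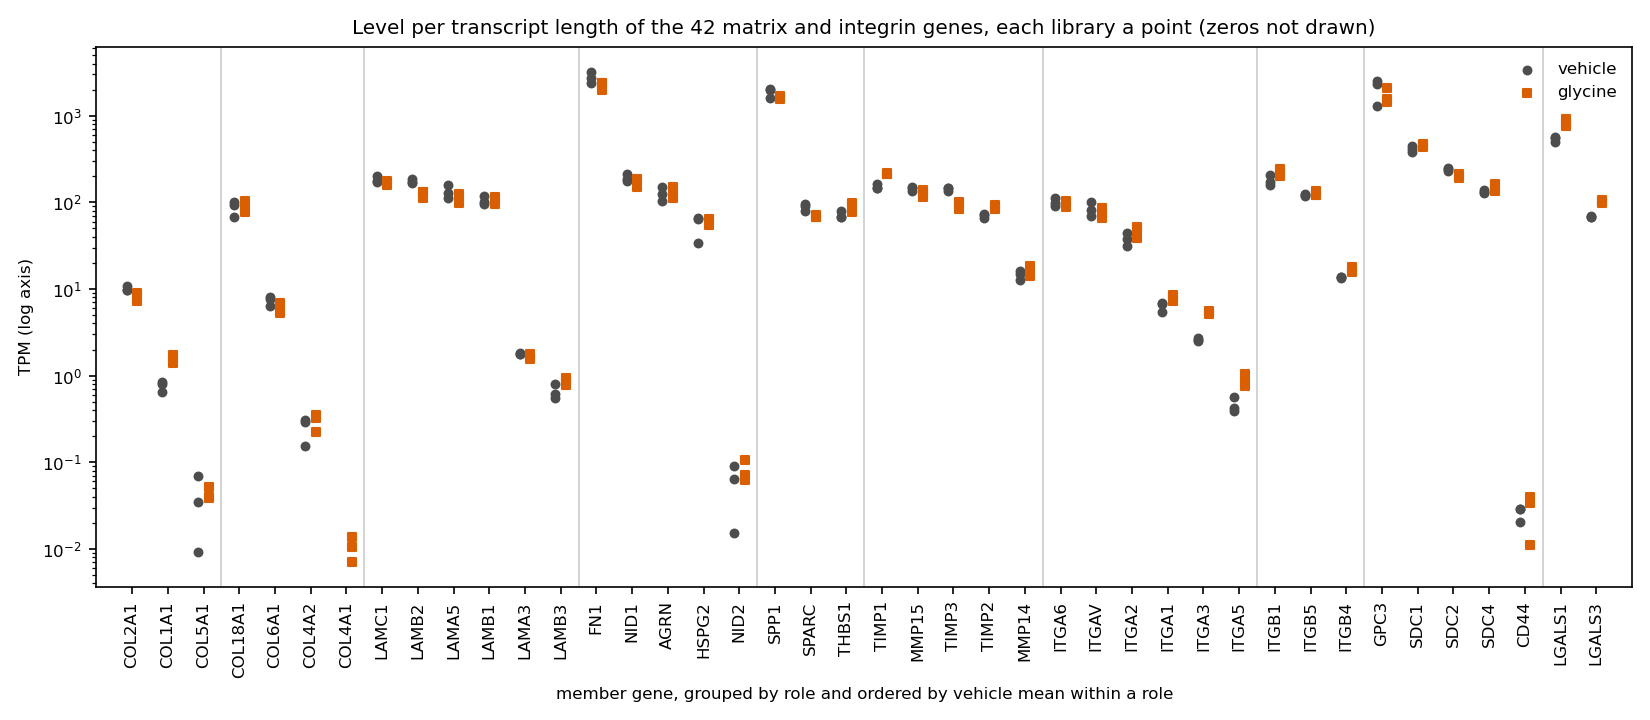
Levels of the 42 genes in TPM on a log axis, with 1 point per library (circles for vehicle, squares for glycine) and the genes grouped by role. FN1, GPC3 and SPP1 lie above 1000 TPM in all libraries, while COL5A1, COL4A1, NID2 and CD44 reach at most 0.107 TPM, and the 3 vehicle libraries of COL4A1, at 0, are not drawn.

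A total of 38 members passed the filter on low counts and were tested. Of these, 10 were called higher with glycine, 5 were called lower and 23 were not called (edgeR quasi-likelihood test, adjusted p under 0.05). That is 39.5% of the tested members, while 13.3% of all 15492 tested genes were called, 6.71% higher and 6.54% lower. The members were chosen with earlier results of these data known. Shares called in the set and its parts are therefore descriptive, and do not measure an excess over all genes. At mean levels of 10 CPM or more, 13 of 33 members and 15.2% of all genes were called. The glycine and vehicle libraries did not overlap for 22 of the 38 members, and for 31.6% of all tested genes. The median log2 change of the tested members was 0.03, and that of all tested genes 0.00. The 4 members too low to test were COL5A1, COL4A1, NID2 and CD44, with 32, 3, 30 and 20 counts over all 6 libraries, and a difference in them was not detectable at this depth. CD44, the main hyaluronan receptor, was thus close to absent in both groups.

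**Figure D2:**
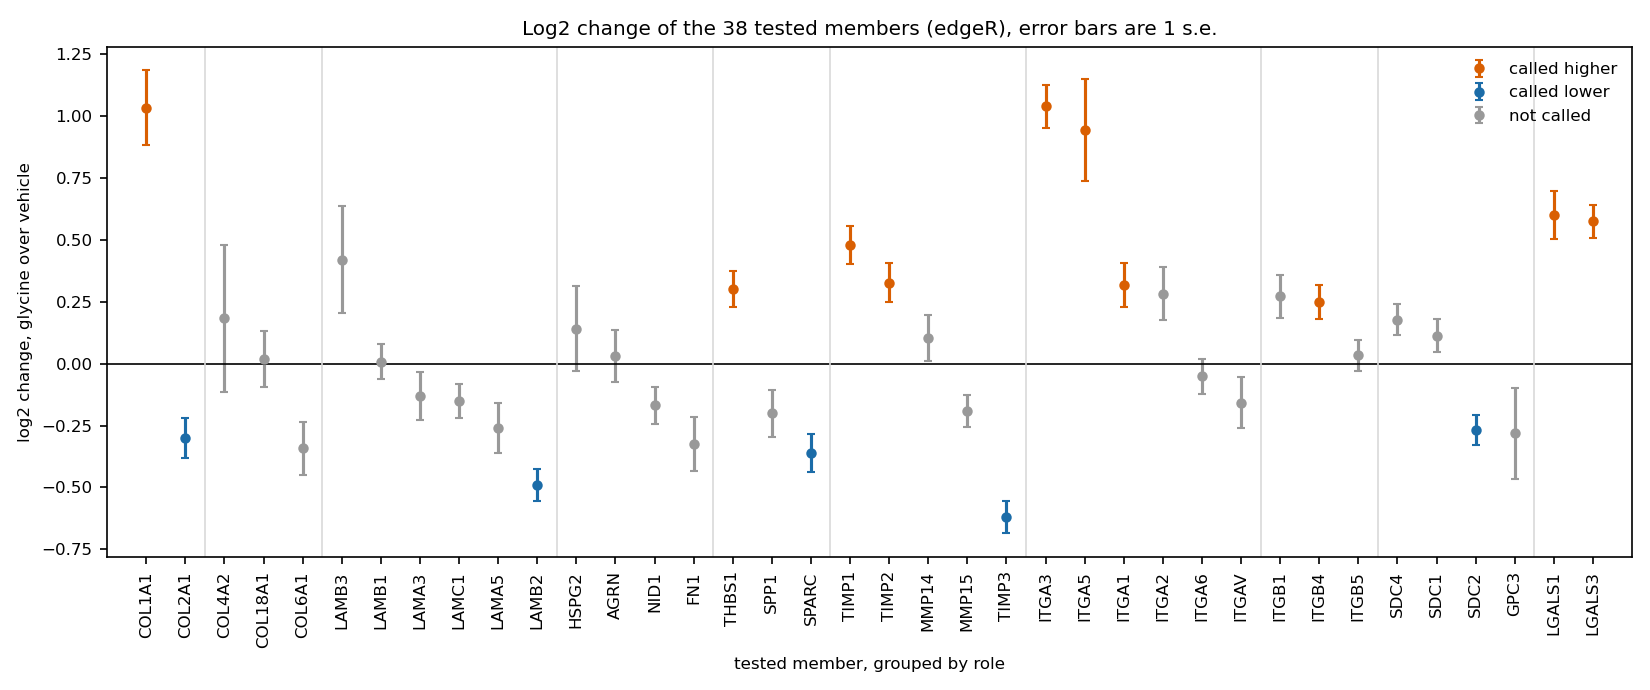
Log2 change of the 38 tested members, glycine over vehicle, with 1 s.e. from the edgeR fit, coloured by call and grouped by role. The changes run from -0.62 for TIMP3 to 1.04 for ITGA3, both galectins and 4 of 9 integrin chains lie above 0 and were called, and no integrin chain was called lower.

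Of the 9 integrin chains of the set, 4 were called higher, 3 of them alpha chains, while 6.71% of all tested genes were. By edgeR, DESeq2 or limma 0 of the 9 were called lower. Of the 9, 6 had an unadjusted p under 0.05, each higher with glycine, against 14.3% of all tested genes in that direction. Outside the set, the integrin chain ITGA10 was called lower. ITGA3 (ENSG00000005884, chromosome 17, 50055968 to 50090481, GRCh38) encodes the alpha 3 chain, which pairs with beta 1 as a laminin receptor. Its level was 6.96, 7.86 and 7.01 CPM in the vehicle libraries and 15.3, 15 and 14.6 CPM in the glycine libraries. The groups were far apart compared with their spread, at 2.05-fold (log2 change 1.04 ± 0.0866 s.e., edgeR adjusted p = 5.8e-06). This was the smallest p-value among the members. ITGA5 (ENSG00000161638, chromosome 12, 54395261 to 54419460), the alpha chain of the classical fibronectin receptor, was at 0.828, 1.26 and 0.918 CPM with vehicle and at 1.6, 1.97 and 2.18 CPM with glycine. Every glycine library was above every vehicle library, with 0.94 ± 0.207 on the log2 scale (edgeR adjusted p = 0.00918), from 364 counts in all. ITGA1 (ENSG00000213949, chromosome 5, 52787896 to 52959210), a chain of a collagen receptor, was at 35, 38.2 and 29.3 CPM with vehicle and at 44.4, 40.1 and 43.3 CPM with glycine, 0.32 ± 0.0891 on the log2 scale (edgeR adjusted p = 0.0325). The gap between its groups was narrow. Exons of other genes, PELO among them, overlap 6.39% of its exon length, and the adjusted p reached 0.0738 without vehicle replicate 1, 0.0859 without vehicle replicate 3, 0.118 without glycine replicate 1 and 0.102 without glycine replicate 3.

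ITGB4 (ENSG00000132470, chromosome 17, 75721328 to 75757818) encodes the beta chain that pairs with alpha 6 in hemidesmosomes. It was at 26.1, 26.9 and 27.2 CPM with vehicle and at 33.5, 31.7 and 30.2 CPM with glycine, 0.25 ± 0.068 on the log2 scale (edgeR adjusted p = 0.0284). The groups did not overlap, but the call was the least stable of the 15. Its adjusted p was 0.106 without vehicle replicate 1, 0.0512 without vehicle replicate 2, 0.162 without glycine replicate 1, 0.073 without glycine replicate 2, and 0.0554 with the replicate number as a block. The common partner chain ITGB1 was at 348, 277 and 303 CPM with vehicle and at 355, 357 and 409 CPM with glycine. Each glycine library was above each vehicle library, although the change missed the threshold (log2 change 0.27 ± 0.0877, edgeR adjusted p = 0.0574). ITGB1 was called in 4 of 14 alternatives, with adjusted p of 0.0223 by DESeq2, 0.00441 with no filter, 0.0493 with the replicate block and 0.023 without vehicle replicate 1, and the range over all 14 was 0.00441 to 0.239. The collagen receptor chain ITGA2 had 0.28 ± 0.106 on the log2 scale (edgeR adjusted p = 0.1) and overlapping groups. It was called in 3 of 14 alternatives, with adjusted p from 0.00286 to 0.305 over all 14. The log2 changes of the other integrin chains were -0.05 for ITGA6, -0.16 for ITGAV and 0.03 for ITGB5, with edgeR adjusted p of 0.689, 0.356 and 0.779.

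The integrin chains that rose most were minor ones in these cells. With vehicle, ITGA6 was at 101 ± 9.6 TPM and ITGAV at 83.7 ± 15.1 TPM, whereas ITGA3 was at 2.59 ± 0.123 and ITGA5 at 0.46 ± 0.0923 TPM. ITGA3 made up 0.968%, 1.19% and 1.23% of the summed TPM of the 6 alpha chains in the vehicle libraries and 2.32%, 2.49% and 2.1% in the glycine libraries. The sum itself was 232 ± 31.9 TPM with vehicle and 235 ± 25.4 TPM with glycine, and its groups overlapped. Alpha 6 and alpha 3 are alternative chains of laminin receptors, and the ratio of ITGA6 to ITGA3 TPM was 38.9 ± 3.71 with vehicle and 18.2 ± 1.04 with glycine (SD, n = 3). ITGA6 thus stayed the more abundant of the pair.

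**Figure D3:**
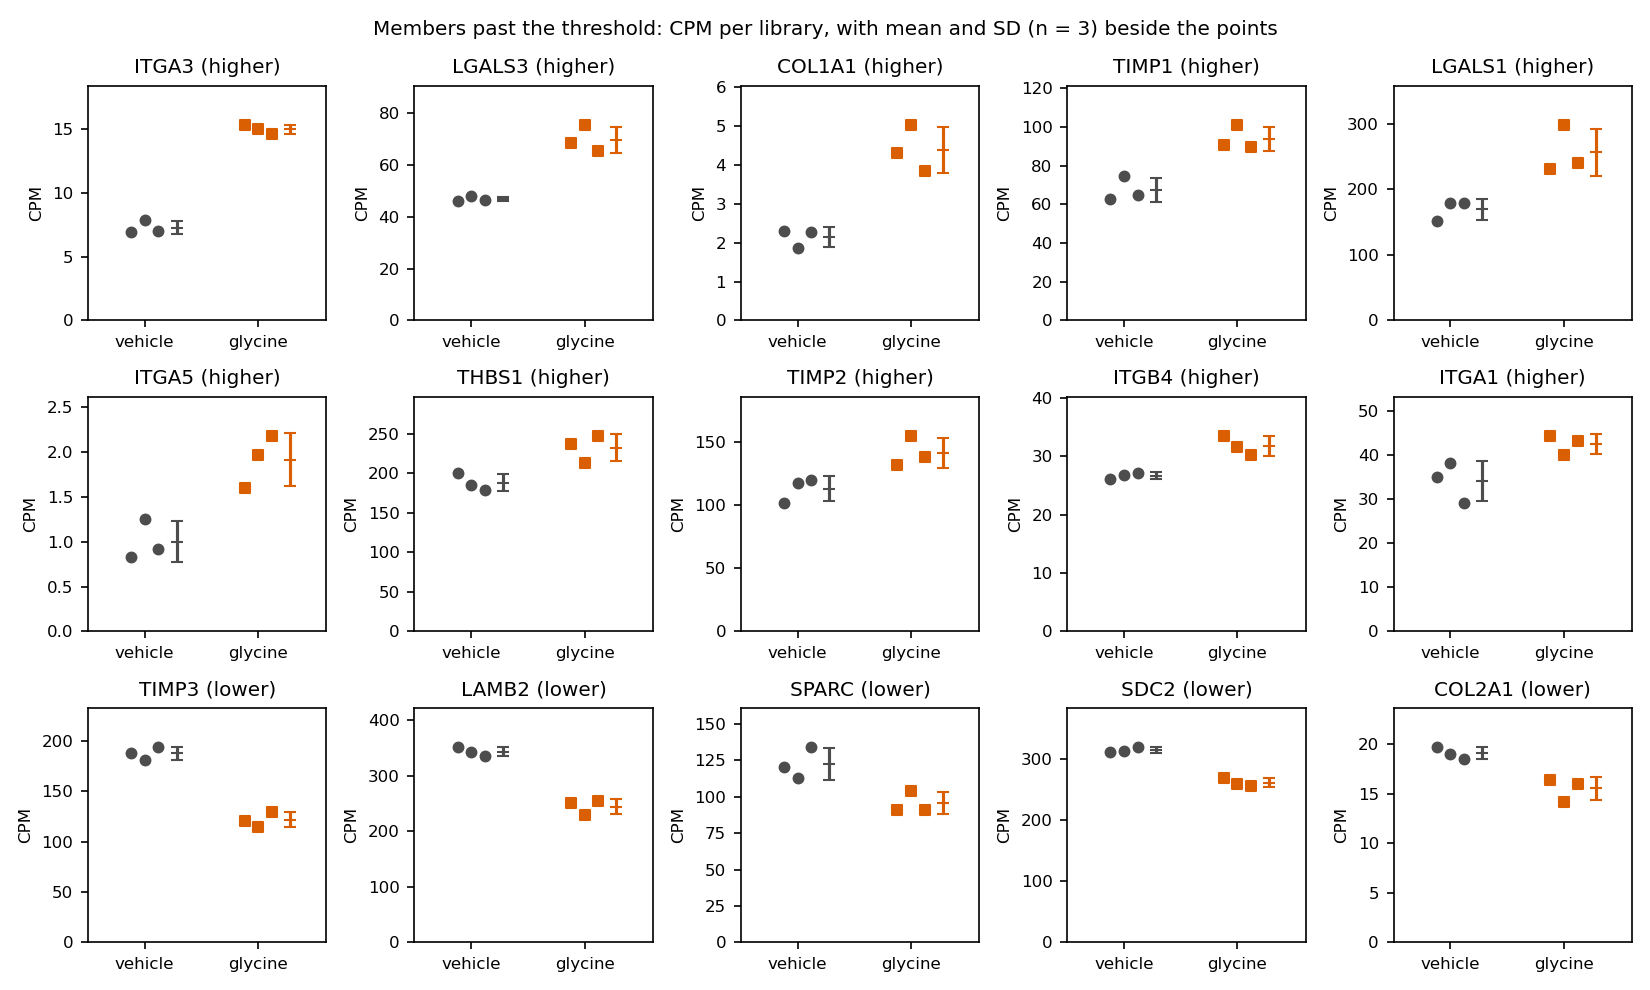
CPM of the 15 called members in each library, from 0, with the mean and SD (n = 3) beside the points. In each panel the 3 glycine libraries lie all above or all below the 3 vehicle libraries, with the widest relative gaps for ITGA3 and COL1A1.

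The TIMP genes moved in opposite directions. TIMP3 (ENSG00000100234, chromosome 22, 32801701 to 32863043), whose product binds to the matrix itself and also inhibits several ADAM proteases, was at 188, 181 and 194 CPM with vehicle and at 121, 115 and 130 CPM with glycine. Its fall was the largest of the set (log2 change -0.62 ± 0.0658, edgeR adjusted p = 4.28e-05). TIMP1 (ENSG00000102265, chromosome X, 47582313 to 47586789), a soluble inhibitor, was at 62.9, 74.5 and 64.6 CPM with vehicle and at 90.9, 101 and 89.8 CPM with glycine. It rose (log2 change 0.48 ± 0.0767, edgeR adjusted p = 0.00117). TIMP2 (ENSG00000035862, chromosome 17, 78852977 to 78925387), which inhibits MMP14 and also takes part in the activation of MMP2 by it, was at 102, 118 and 120 CPM with vehicle and at 132, 155 and 138 CPM with glycine. Its log2 change was 0.33 ± 0.0787 (edgeR adjusted p = 0.0152), and the adjusted p was 0.0824 when vehicle replicate 1 was left out and 0.0687 when glycine replicate 2 was. Exons of other genes overlap 10.0% of the TIMP2 exon length.

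The make-up of the TIMP transcripts differed between the groups more than their total. TIMP3 was 40.9%, 36.3% and 40% of the summed TPM of the 3 genes in the vehicle libraries and 24.2%, 21.2% and 25.5% in the glycine libraries. TIMP1 took the largest share with glycine, at 54 ± 1.53% against 41.7 ± 2.42% (SD, n = 3). The sum was 364 ± 4.56 TPM with vehicle and 396 ± 5.23 TPM with glycine. The 2 membrane-type proteases of the set were not called. MMP15 was at 184, 176 and 186 CPM with vehicle and at 159, 151 and 169 CPM with glycine (log2 change -0.19 ± 0.0636, edgeR adjusted p = 0.0646), without overlap between groups. It was called lower in 1 of 14 alternatives (DESeq2 adjusted p = 0.0326). MMP14, the best known activator of MMP2, was at 14.6 ± 1.78 TPM with vehicle, and its log2 change was 0.10 ± 0.0939 (edgeR adjusted p = 0.522).

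**Figure D4:**
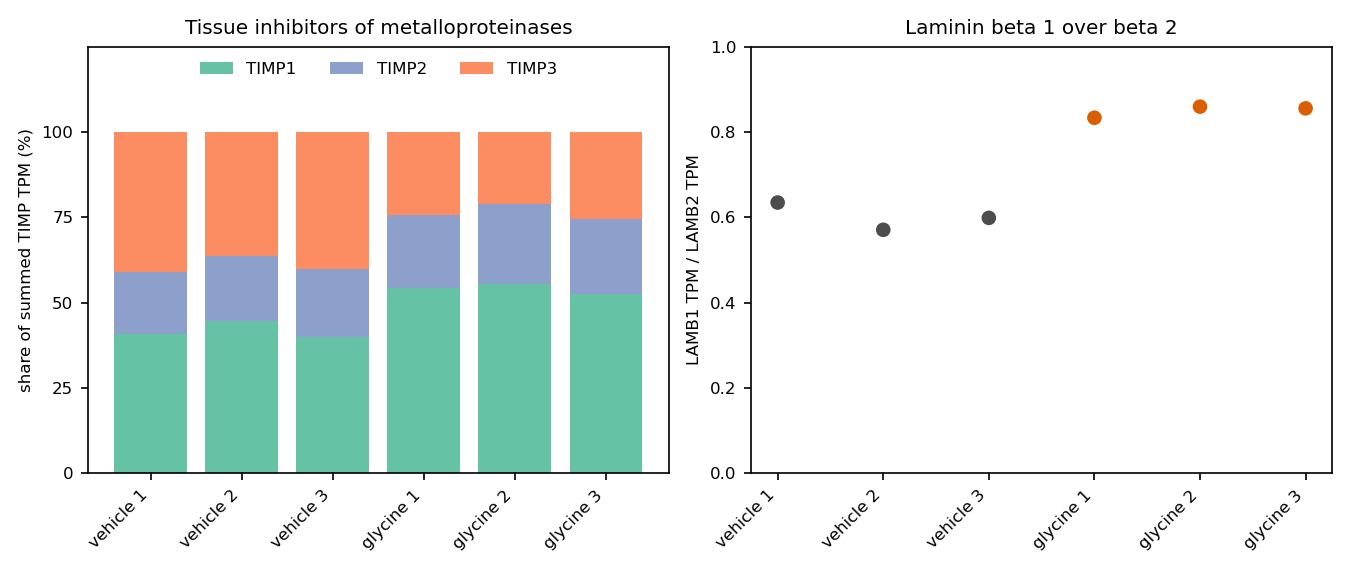
Left, share of the summed TIMP1, TIMP2 and TIMP3 TPM held by each gene in each library, in percent. Right, ratio of LAMB1 to LAMB2 TPM in each library. TIMP3 holds 36.3% to 40.9% with vehicle and 21.2% to 25.5% with glycine, and the laminin ratio is 0.571 to 0.635 with vehicle and 0.834 to 0.86 with glycine.

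Of the 11 tested basement membrane members, LAMB2 alone was called. LAMB2 (ENSG00000172037, chromosome 3, 49121114 to 49133118), the beta 2 chain, was at 352, 343 and 336 CPM with vehicle and at 251, 229 and 254 CPM with glycine. The drop was large compared with the spread, with -0.49 ± 0.0653 on the log2 scale (edgeR adjusted p = 0.000277). The alternative beta 1 chain LAMB1 was at 265, 232 and 239 CPM with vehicle and at 248, 234 and 258 CPM with glycine, with overlapping groups and 0.01 ± 0.0703 on the log2 scale (edgeR adjusted p = 0.959). The ratio of LAMB1 to LAMB2 TPM was accordingly 0.635, 0.571 and 0.599 with vehicle and 0.834, 0.86 and 0.856 with glycine. The remaining laminin chains were not called, with log2 changes of -0.26 for LAMA5, -0.15 for LAMC1, -0.13 for LAMA3 and 0.42 for LAMB3, and edgeR adjusted p of 0.114, 0.175, 0.421 and 0.237. LAMA5 was called lower in 3 of 14 alternatives, DESeq2 among them, with adjusted p from 0.0128 to 0.362 over all 14. LAMC1 and LAMA3 had no overlap between groups, at 443 ± 28.7 against 399 ± 7.77 CPM and at 6.92 ± 0.0861 against 6.32 ± 0.339 CPM.

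The linkers of the basement membrane showed no called change. NID1, encoding nidogen-1, which bridges laminin and collagen IV, had 321 ± 23.4 CPM in the vehicle group and 286 ± 20.3 CPM in the glycine group (edgeR adjusted p = 0.168). AGRN, which encodes agrin, was at 388 ± 58.1 and 396 ± 44.9 CPM (edgeR adjusted p = 0.897). HSPG2 had the widest spread of these, because vehicle replicate 3 was at 175 CPM while the other vehicle libraries were at 311 and 342 CPM. Its glycine libraries were at 321, 291 and 302 CPM, and the log2 change of 0.14 ± 0.172 (edgeR adjusted p = 0.649) became -0.10 without vehicle replicate 3. Of all 13 basement membrane components in the set (laminin chains, nidogens, AGRN, HSPG2, COL4A1, COL4A2 and COL18A1), 11 were tested and 1 was called, against 13.3% of all tested genes.

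FN1, the most abundant member, was at 15567, 13966 and 12027 CPM with vehicle and at 11442, 10297 and 11443 CPM with glycine. All glycine libraries were below all vehicle libraries, but the vehicle libraries themselves ranged widely and the change was not called (log2 change -0.32 ± 0.11, edgeR adjusted p = 0.0712). It was called lower in 4 of 14 alternatives, namely by DESeq2, by limma, with no filter and without vehicle replicate 3 (0.0332). The adjusted p ran from 0.0013 to 0.208 over all 14. FN1 took 1.38 ± 0.177% of all counts with vehicle and 1.11 ± 0.0753% with glycine, and the other 41 members 0.861 ± 0.0874% and 0.819 ± 0.0499%.

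Of the tested fibrillar collagen chains, COL1A1 was called higher and COL2A1 lower. COL1A1 (ENSG00000108821, chromosome 17, 50183289 to 50201632), the main chain of type I collagen, was at 2.31, 1.86 and 2.28 CPM with vehicle and at 4.29, 5.02 and 3.84 CPM with glycine. It rose 2.05-fold, with 1.03 ± 0.151 on the log2 scale (edgeR adjusted p = 0.000585), but its level stayed low, at 0.766 ± 0.108 TPM with vehicle and 1.57 ± 0.156 TPM with glycine. COL1A2, the partner chain of type I collagen, was too low to test, with 19 counts over all libraries. COL2A1 (ENSG00000139219, chromosome 12, 47972965 to 48004486), the type II collagen chain of cartilage, was at 19.7, 19 and 18.5 CPM with vehicle and at 16.4, 14.2 and 16 CPM with glycine. Its log2 change was -0.30 ± 0.0797 (edgeR adjusted p = 0.0251), and the adjusted p was 0.069 when vehicle replicate 1 was left out and 0.114 when glycine replicate 2 was. COL6A1, a chain of the microfibrillar type VI collagen, was at 12, 10.1 and 11.8 CPM with vehicle and at 10.2, 8.41 and 8.24 CPM with glycine. The groups overlapped slightly, and the log2 change of -0.34 ± 0.107 missed the threshold (edgeR adjusted p = 0.0504). COL6A1 was called in 7 of 14 alternatives, with adjusted p of 0.0451 with DESeq2 size factors, 0.0465 with upper-quartile scaling, 0.0171 with no filter, 0.0455 by limma, 0.0393 with the replicate block, 0.027 without vehicle replicate 2 and 0.0243 without glycine replicate 1, and the range over all 14 was 0.0171 to 0.164. COL18A1, the source of endostatin and by far the most abundant collagen member at 87.9 ± 17.3 TPM with vehicle, had 0.02 ± 0.114 on the log2 scale (edgeR adjusted p = 0.939). Exons of SLC19A1 overlap 16.4% of the COL18A1 exon length. The log2 change of COL4A2 was 0.18 ± 0.296 (edgeR adjusted p = 0.742).

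Matricellular proteins are secreted into the matrix and modulate adhesion rather than building fibres. THBS1 (ENSG00000137801, chromosome 15, 39581079 to 39599466), encoding thrombospondin-1, was at 200, 185 and 179 CPM with vehicle and at 237, 213 and 247 CPM with glycine. It rose 1.23-fold (log2 change 0.30 ± 0.0724, edgeR adjusted p = 0.0147). The call was lost without glycine replicate 1 (adjusted p 0.07) and without glycine replicate 3 (0.0855), while the log2 change stayed between 0.245 and 0.364 in all 14 alternatives. SPARC (ENSG00000113140, chromosome 5, 151661096 to 151687165), a collagen-binding protein also called osteonectin, was at 120, 113 and 134 CPM with vehicle and at 91.1, 104 and 91 CPM with glycine. It fell (log2 change -0.36 ± 0.0768, edgeR adjusted p = 0.00785). SPP1 was at 1275, 1094 and 1373 CPM with vehicle and at 1007, 1181 and 1066 CPM with glycine. Its groups overlapped, and the log2 change of -0.20 ± 0.0938 was not called (edgeR adjusted p = 0.186).

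The 250 bases before the RefSeq start site are shown for THBS1, one of the members that rose, and for TIMP3, which fell most. THBS1 did not have the largest rise, and its call was lost in 2 of the fits without 1 library. The sequences are from RefSeq, GRCh38.p14, in the direction of the gene, at chr15:39580829-39581078 for THBS1 and chr22:32801455-32801704 for TIMP3, both on the plus strand. Capitals mark matches on either strand to GGAATG, the core of sites for TEAD factors, or to GGGCGG, the GC box of SP1.
THBS1: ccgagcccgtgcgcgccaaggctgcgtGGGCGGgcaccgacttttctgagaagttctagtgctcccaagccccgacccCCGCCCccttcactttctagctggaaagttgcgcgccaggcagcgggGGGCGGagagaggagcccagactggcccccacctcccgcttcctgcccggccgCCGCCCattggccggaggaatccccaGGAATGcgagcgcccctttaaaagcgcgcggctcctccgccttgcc
TIMP3: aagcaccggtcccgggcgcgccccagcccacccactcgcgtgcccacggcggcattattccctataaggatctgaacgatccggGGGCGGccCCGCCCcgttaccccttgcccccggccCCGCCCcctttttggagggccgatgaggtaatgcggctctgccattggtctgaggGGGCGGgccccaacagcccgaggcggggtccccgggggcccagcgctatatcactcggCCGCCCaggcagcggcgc

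The GGAATG match lay 46 to 41 bases before the RefSeq start of THBS1. SPARC, which fell, also held one, 17 to 12 bases before its RefSeq start, but its RefSeq start lies inside the gene as the files place it, so that this window is not upstream of the gene there. TIMP3 held 5 GC boxes and no GGAATG. RefSeq promoter entries were matched for 32 of the 42 members. GGAATG was found in 4 of the 32, namely THBS1, SPARC, ITGA5 and ITGB1, and in 11.9% of 27305 promoters of the same length. Among members with an entry, it was in 2 of the 5 called higher and in 1 of the 3 called lower. The RefSeq starts of ITGA5 and ITGB1 likewise lie inside the gene, so that of the 4 only THBS1 held its match upstream of the gene. GGGCGG was found in 27 of the 32 and in 42.3% of all promoters. The AP-1 motif TGANTCA was found in LAMA3 alone (6.6% of all promoters), TATAAA in ITGA6 alone (11.1%), and the CArG box, which binds SRF, in none (1.14%). The LAMA3 window also lay inside the gene, as did those of other members, LGALS3 and COL4A2 among them. Matches of GGGCGG can overlap one another, and a match is a run of letters, not a measured binding site.

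Cell surface proteoglycans carry heparan sulfate chains that bind matrix proteins and growth factors. Of these, SDC2 (ENSG00000169439, chromosome 8, 96493351 to 96611780), encoding syndecan-2, was called, with 311, 312 and 319 CPM with vehicle and 269, 258 and 256 CPM with glycine. The replicates were close together, and the log2 change was -0.27 ± 0.0606 (edgeR adjusted p = 0.011). SDC4, the syndecan of focal adhesions, was at 99.8, 98 and 100 CPM with vehicle and at 112, 107 and 119 CPM with glycine. It was higher in each glycine library without passing the threshold (log2 change 0.18 ± 0.0619, edgeR adjusted p = 0.0791). SDC1, the most abundant syndecan, had 0.11 ± 0.0666 on the log2 scale (edgeR adjusted p = 0.308). GPC3 ranged from 1034 to 1882 CPM among the vehicle libraries and from 1085 to 1553 CPM among the glycine libraries, and its log2 change of -0.28 ± 0.183 was not called (edgeR adjusted p = 0.359). Without vehicle replicate 2, the lowest of its group, the log2 change was -0.51 and the adjusted p 0.0161.

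Both galectins rose. Galectins are small lectins that bind galactose-containing sugars on matrix proteins and integrins. LGALS3 (ENSG00000131981, chromosome 14, 55124110 to 55145413), encoding galectin-3, was at 46.3, 48 and 46.5 CPM with vehicle and at 68.4, 75.5 and 65.6 CPM with glycine. Its log2 change was 0.57 ± 0.0684 (edgeR adjusted p = 0.000111). LGALS1 (ENSG00000100097, chromosome 22, 37675608 to 37679806), encoding galectin-1, was at 151, 179 and 179 CPM with vehicle and at 231, 298 and 240 CPM with glycine, 0.60 ± 0.0975 on the log2 scale (edgeR adjusted p = 0.00131). It was the fourth most abundant member per length and rose from 536 ± 37.1 to 819 ± 84.4 TPM. Neither gene overlapped between groups.

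The other genes of matrix and adhesion comprised 211 genes in 8 lists, of which 138 were tested, 24 called higher and 13 lower, or 26.8% in all. Among all tested genes, 13.3% were called, 6.71% higher and 6.54% lower. These lists too were chosen with earlier results of these data known, so their shares do not measure an excess over all genes. The median log2 change of the 138 genes was -0.01. Focal adhesion adaptors, which tie integrins to actin, had 8 of 31 tested genes higher and 1 lower. The 4 with the smallest p-values were TNS4, PDLIM7, TGFB1I1 and LIMS2, with log2 changes of 1.05, 0.74, 0.80 and 0.67, and TNS3 fell, with -0.32. TNS4, encoding a tensin that binds integrin beta tails, was at 23.2, 24.8 and 25.4 CPM with vehicle and at 52.6, 48.4 and 51 CPM with glycine (edgeR adjusted p = 7.38e-07). Other matrix proteases and inhibitors had 6 of 19 higher and 1 lower. Among them SERPINE2, a serine protease inhibitor, rose (0.64). MMP2 and MMP3, a gelatinase and a stromelysin, also rose (1.09 and 1.15) from means of 1.75 and 0.585 CPM. MMP17 was the gene that fell (-0.53).

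Collagen processing genes had 2 of 25 higher and 4 lower, against 6.71% and 6.54% of all tested genes. The lysyl hydroxylase PLOD2 (-1.52), the prolyl hydroxylase subunits P4HA2 (-0.41) and P4HA1 (-0.27) and the prolyl hydroxylase P3H1 (-0.26) fell, while the lysyl oxidase family member LOXL2 (0.66) and the collagen chaperone SERPINH1 (0.37) rose. Among other matrix glycoproteins and proteoglycans, 4 of 29 were higher and 2, NPNT and FBLN5 (-1.66), lower. NPNT, which encodes nephronectin, an integrin ligand of basement membranes, was at 31.4, 29 and 30.3 CPM with vehicle and at 14.7, 16.7 and 15.4 CPM with glycine (log2 change -0.95, edgeR adjusted p = 3.84e-06). The matricellular genes CCN2 (0.68) and CCN1 (0.68) and the hyaluronan-binding proteoglycan VCAN (0.78) rose, as did LTBP1 (0.88), a latent TGF-beta binding protein. Of 12 other collagen chains tested, COL26A1 rose (0.56), and COL4A5 (-0.39) and COL27A1 (-0.56) fell. Of 7 other integrin chains tested, ITGAL rose (0.71) and ITGA10 fell (-0.57). LAMC3 was the laminin chain tested outside the set, and it was not called (0.39, edgeR adjusted p = 0.0505). Among the remaining surface proteoglycans, dystroglycan, hyaluronan enzymes and galectins, 2 of 14 were higher, namely the hyaluronan receptor HMMR (0.55) and SDC3 (0.53), and 2 were lower, namely TGFBR3 (-0.49) and LGALS2 (-0.47). DAG1, encoding dystroglycan, was not called (-0.12, edgeR adjusted p = 0.404).

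**Figure D5:**
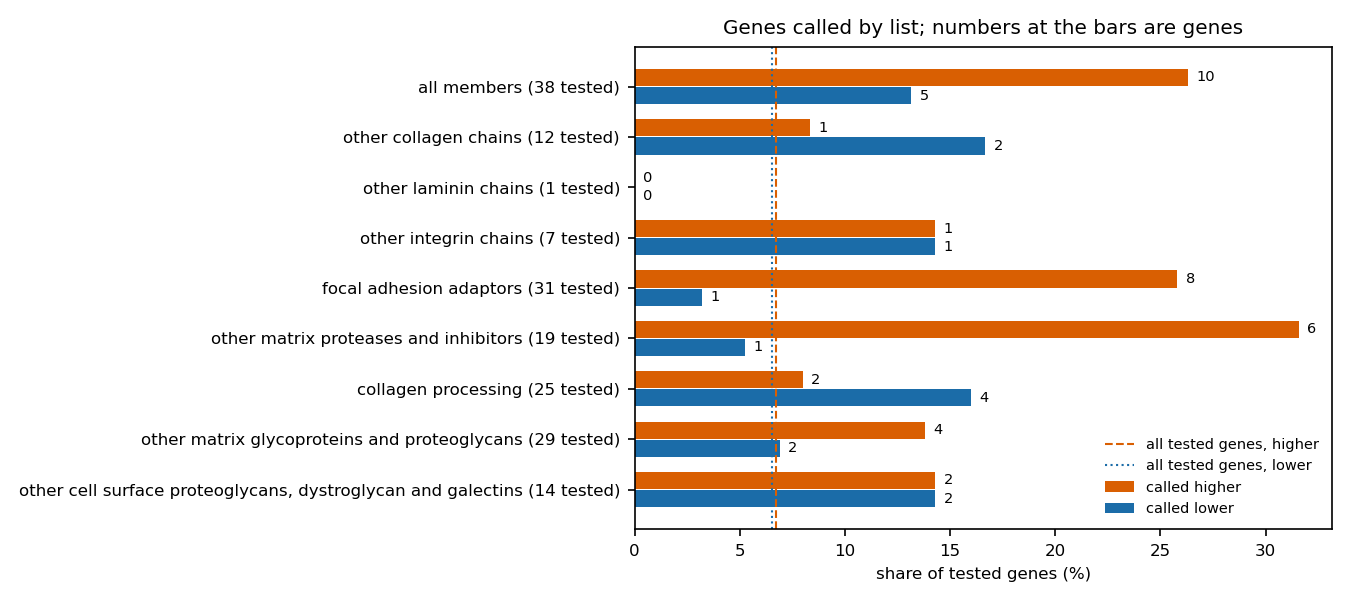
Share of tested genes called higher or lower in the set and in the 8 other lists, with the number of genes at each bar, and dashed or dotted lines at the shares over all tested genes (6.71% higher, 6.54% lower). Focal adhesion adaptors (8 higher, 1 lower) and other matrix proteases and inhibitors (6 higher, 1 lower) have more genes called higher than lower, and collagen processing genes (2 higher, 4 lower) have more called lower.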

How the data were processed

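RNA from 6 HepG2 libraries (3 glycine, 3 vehicle) was sequenced, and the deposited files hold whole-number read counts per gene, 1 file per library, not normalized. The submitters' processing notes name Trimmomatic 0.36, STAR 2.5.2b, featureCounts of Subread 1.5.2 and GRCh38. The strand setting, annotation release and treatment of multi-mapping reads are not given in the sources used here, so how reads of overlapping genes were assigned is unknown. Symbols were matched by Ensembl identifier. The files' gene coordinates were given, and 54784 of 57500 genes had the same ones in GENCODE release 29.

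Differences in counts were tested two-sided in edgeR 4.0.16 under R 4.3.3 by quasi-likelihood (group alone, all 6 libraries, minimum count 10, minimum total 15, trimmed mean of M values). Benjamini-Hochberg adjustment covered all 15492 tested genes. CPM used the scaled library sizes, and TPM the file's exon length. The s.e. is the log2 change over the square root of F. The alternatives were other scalings, other filters, DESeq2 1.42.0, limma 3.58.1 with voom, the replicate number as a block, and omission of each library in turn. The script was tested on simulated data. The members, the gene lists and the rule for naming genes (every called member per library, up to 4 called genes per other list, by p-value; COL1A2, DAG1, FBLN5, LAMC3, LTBP1, MMP17, P3H1, P4HA1 and TNS3 were named after their values were seen) were chosen with earlier results of these data known. Of the genes this rule selects, 1 is not reported here. Promoters were searched for 5 motifs on both strands.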

Additional observations from a re-analysis of the deposited data

How the results depend on the processing

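Of the 15 called members, 10 kept their call under all 14 alternatives, and no member changed sign in the 8 alternatives that used all 6 libraries. The number of members called lower was 9 with no filter, 8 with DESeq2 and 7 with limma, against 5. It was 6 with the replicate block, with DESeq2 size factors and with upper-quartile scaling. When single libraries were left out it was from 4 to 8, with 8 without vehicle replicate 2. The number called higher ran from 7 to 9 in the fits without 1 library, against 10. It was 12 with no filter and 11 with DESeq2. With no filter the s.e. was 0.0743 for AGRN and 0.074 for HSPG2, against 0.105 and 0.172 in the main fit. The p-values with no filter thus reflect the spread of these genes between libraries less, and calls made in that fit carry less weight. Over all tested genes, leaving out a library gave 587 to 926 higher and 655 to 1010 lower, against 1040 and 1013, with fewer samples in each fit. The number higher was 590 without vehicle replicate 1 and 594, 617 and 587 without glycine replicates 1, 2 and 3, and the number lower was 655 without glycine replicate 2. Without vehicle replicate 2 it was 926 higher and 1010 lower, so the number called also differed by the library left out. The cause of these shifts, and of those in the members, was not tested. For uncalled members that changed sign, the log2 changes across those fits ran from -0.073 to 0.13 for AGRN, -0.12 to 0.092 for COL18A1, -0.10 to 0.36 for COL4A2, -0.10 to 0.33 for HSPG2, -0.006 to 0.057 for ITGB5 and -0.035 to 0.057 for LAMB1. Of the 23 uncalled tested members, 8 were called in at least 1 alternative, namely COL6A1, FN1, GPC3, ITGA2, ITGB1, LAMA5, MMP15 and SPP1. FN1 was called with DESeq2, with limma and with no filter, as well as without vehicle replicate 3. Replicate numbers gave no sign of pairing: the correlation between same-numbered libraries, after subtraction of group means, was -0.0577, -0.0268 and -0.00258, and no library correlated best with its own number. The largest values were 0.214 for vehicle 1 with glycine 3, 0.214 for vehicle 2 with glycine 1 and 0.18 for vehicle 3 with glycine 2. The lowest was -0.198, for vehicle 2 with glycine 3. Whether libraries were matched under other numbers was not tested. With the replicate block, 866 genes were higher and 918 lower, ITGB4 lost its call (adjusted p 0.0554), and ITGB1 (0.0493) and COL6A1 (0.0393) gained one. Levels under 3 counts, 0.0510 to 0.0943 CPM by library, are beyond this depth.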

Other observations

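The highest of the 6 values of a tested member fell in vehicle replicate 1 for 12 of 38 members, more often than in any other library. This was not counted over all tested genes, so whether it is particular to the members is not known. GPC3 was at 1882, 1034 and 1800 CPM with vehicle and at 1085, 1244 and 1553 CPM with glycine, the widest absolute spread of the set after FN1. ALB was at 9038, 5366 and 8660 CPM and at 4682, 5344 and 6405 CPM in the same order of libraries, and AFP at 2569, 1359 and 2289 CPM and at 1310, 1589 and 2047 CPM. COL4A2 and COL4A1 lie next to each other on chromosome 13, and the former had 161 counts over all libraries against 3 for the latter.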
